A study of Mus musculus with 18 samples.

Results

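Ribosomal protein genes encode the protein part of the cytoplasmic ribosome, whose small subunit decodes messenger RNA and whose large subunit forms peptide bonds. All gene symbols of the form Rpl or Rps followed by a number, with Rplp0, Rplp1 and Rplp2, were taken from a table of 34082 gene rows from mouse thymocytes. This gave 82 members, 50 of the large subunit and 32 of the small subunit, of which 7 are paralog rows such as Rpl3l and Rps27l. Rpsa, Fau and Rpl36al also encode cytoplasmic ribosomal proteins but fall outside the pattern of the symbols.

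Ribosomal proteins are made in near equal amounts by most dividing cells, and their messages are among the most abundant in a cell. Their translation is adjusted together through a run of pyrimidines at the very start of the message, the 5′ terminal oligopyrimidine tract. In mouse thymus the large subunit protein Rpl22 is known for its requirement in the development of alpha beta T cells, and Rpl22l1 is its paralog.

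The series measured RNA by sequencing in 7 sorted populations of thymocytes from C57BL/6 mice at postnatal day 10, in a study of progenitors of IL-17-producing gamma delta cells. DN1ab, DN1d and ImmV2 had 2 libraries each, and DN1e, DN1 ckit+, DN2 and DN4 had 3 each, where DN means double negative for CD4 and CD8 and ckit is the receptor Kit; ImmV2, the population the design text offers as the reference, is not expanded in the labels. No treatment or allele is given for any group, and about 10000 cells were sorted per population and amplified before sequencing. Whether replicates are from different animals is not labelled. The p-values therefore cover only how far these libraries differ, part of which may be technical.

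The values are FPKM, fragments scaled to gene length and library size. They were deposited as log2 FPKM with a lowest value of 0.01 FPKM, which need not mean absence of the transcript. The same high values recurred in different libraries: 774.9 FPKM was listed for Rpl4 in DN2 2 and for Rps27 in DN2 1 and DN4 1. High values may therefore lie on a scale shared by rank, and neither that step nor the reduction of transcripts to 1 row per symbol is described. Levels of different genes and shares of summed FPKM are given within that limit. Depth is unknown, since the table holds no counts. In sorted pools, fewer cells with a transcript and less transcript per cell cannot be told apart. Cd3e, a T cell receptor chain, was 170.0, 105.3 and 166.3 FPKM in DN4 and 0.01 to 0.8296 FPKM in DN2. The summed level of 6 myeloid markers was 665 to 1280 FPKM in DN1e and 2.09 to 116 FPKM elsewhere, and that of 5 B cell markers was 855 to 1250 FPKM in DN1d and 0.52 to 92.2 FPKM elsewhere. The part of such cells in the results below was not tested.

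The start of the message is shown for members whose values are described below, since the pyrimidine tract marks this gene family. Each line gives 30 bases before and 20 bases from the RefSeq start (GRCm38.p6), in lower case, with a tract (a C followed by at least 4 pyrimidines, beginning within 5 bases of the start) in capitals.
Rps27, chr3:90213629-90213678, minus strand: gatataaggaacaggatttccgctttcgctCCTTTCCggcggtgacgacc
Rps23, chr13:90923092-90923141, plus strand: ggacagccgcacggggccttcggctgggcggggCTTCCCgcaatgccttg
Rpl34, chr3:130730379-130730428, minus strand: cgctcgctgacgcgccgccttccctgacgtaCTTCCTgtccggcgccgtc
Rpl38, chr11:114668550-114668599, plus strand: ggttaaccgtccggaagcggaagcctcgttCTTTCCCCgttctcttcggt
Rpl28, chr7:4792935-4792984, plus strand: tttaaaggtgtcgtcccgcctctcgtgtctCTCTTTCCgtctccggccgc
Rpl4, chr9:64173357-64173406, plus strand: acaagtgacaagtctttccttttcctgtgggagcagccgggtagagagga
Rpl5, chr5:107900498-107900547, plus strand: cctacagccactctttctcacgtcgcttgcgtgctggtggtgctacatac
Rps25, chr9:44407684-44407733, plus strand: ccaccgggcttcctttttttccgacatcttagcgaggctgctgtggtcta
A tract was found in 31 of 73 windows (42.5%) of the 61 members with a RefSeq window, against 18.3% of 32851 windows of all genes. The letters CCGGAAG, searched on both strands of the whole 300-base windows and able to overlap a tract on the reverse strand, were in 35.6% of the member windows and 8.86% of all windows. Members with a tract reached at least 32 FPKM in a median of 5.0 libraries (29 members) and those without in 5.5 (32 members). A missing tract says only that the letters are absent near the annotated start.

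Levels of ribosomal protein genes ranged from the lowest value of the table to 2475 FPKM. Of the 1476 values, 347 (23.5%) were at the lowest value, 209 (14.2%) lay above it but under 1 FPKM, 396 (26.8%) were 1 to 32 FPKM and 524 (35.5%) were at least 32 FPKM. A level of 32 FPKM was chosen after the values were seen. The genes changed place between libraries: 71 of 82 members were under 1 FPKM in some library and at least 32 FPKM in another. No such count over all rows is given. Over all 18 libraries, the SD of a member's log2 FPKM had a median of 5.08.

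**Figure D1:**
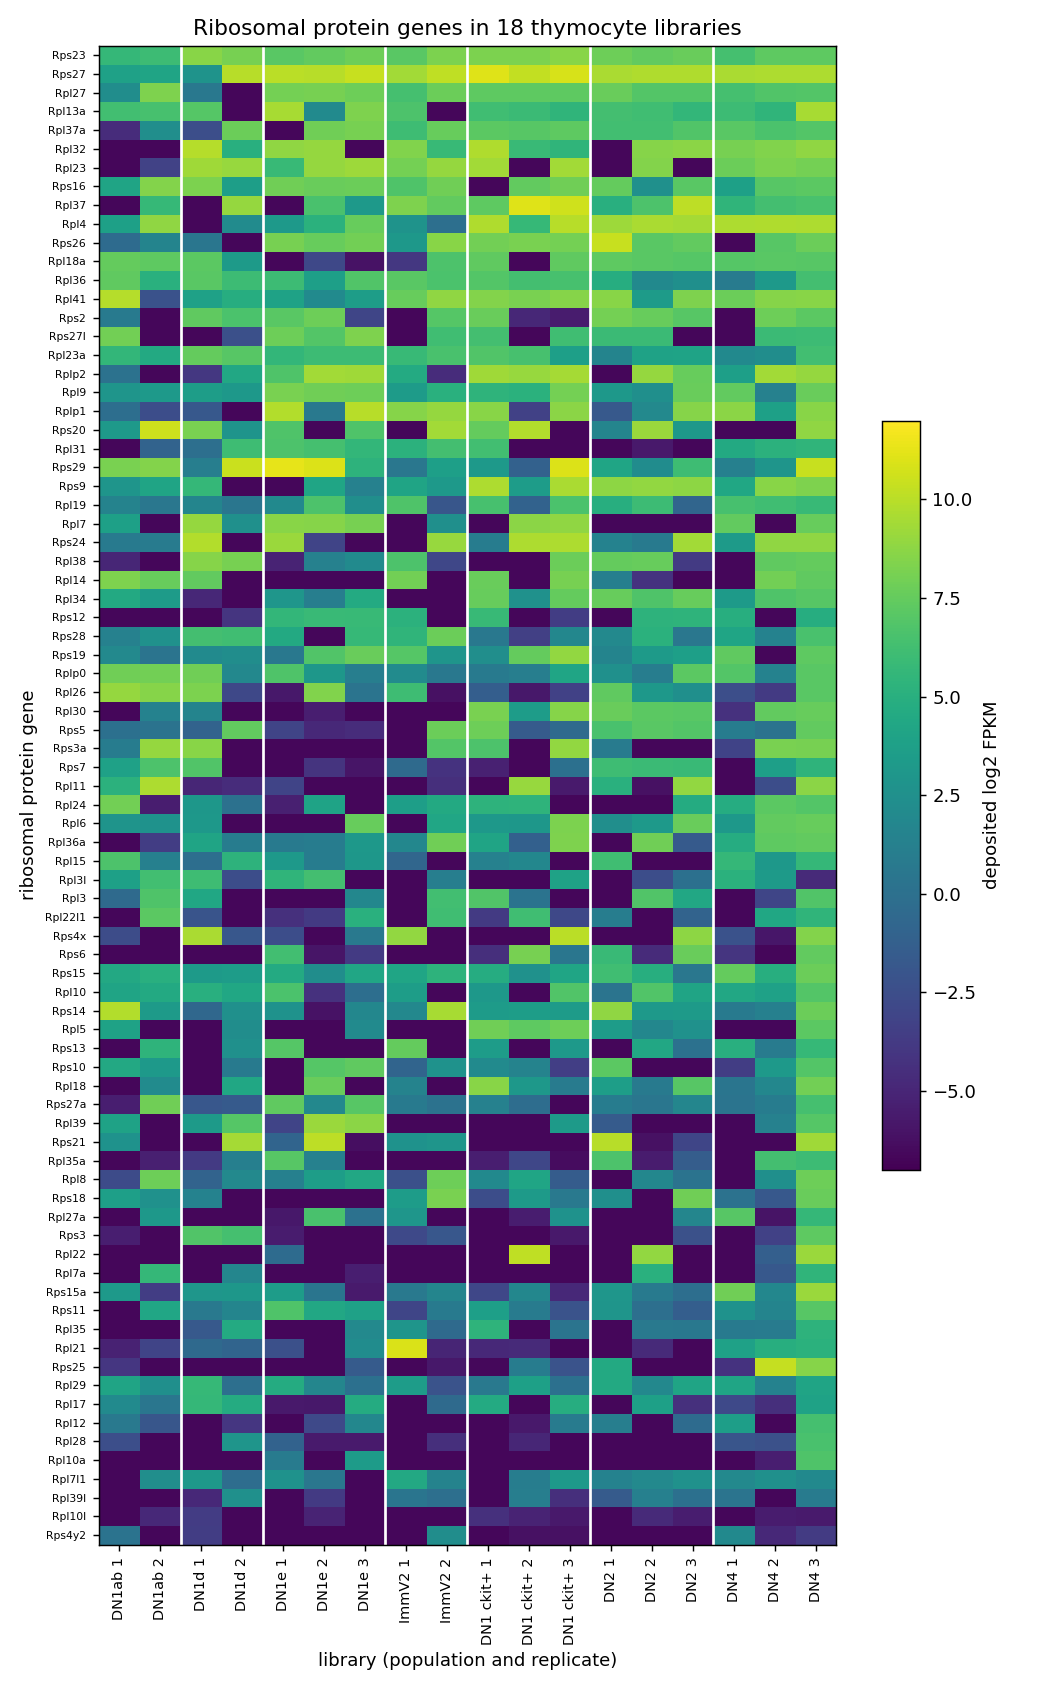
Deposited log2 FPKM of 80 of the 82 ribosomal protein genes (rows, ordered by the number of libraries at 32 FPKM or more) in 18 libraries (columns, white lines between populations). Dark cells are at the lowest value and bright cells are high; most genes mix dark and bright cells, and the DN4 3 column at the right has 0 genes at the lowest value.

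DN4 3 stood apart from the other 17 libraries, and the labels do not tell whether it was processed differently. It had 0 members at the lowest value, where the others had 11 to 28 (median 21), and 74 members at 32 FPKM or above, where the others had 15 to 34. Its median member level was 146.1 FPKM against 2.009 to 10.41 FPKM elsewhere, and its members held 1.16% of summed FPKM against 0.268% to 0.91%. Among its 1000 highest rows were 65 members, against 12 to 32 in each other library. Over all rows 41.2% were at the lowest value in DN4 3, within the range of the other libraries (34.5% to 53.6%). By other measures over all rows it lay outside that range. Its share under 1 FPKM was 68.8% against 69.5% to 69.8%, and its median was 0.04656 FPKM against 0.01 to 0.03822 FPKM. The member medians of the DN4 comparisons and the DN4 differences named below are given with and without it. Counts at an unadjusted p, shares of all genes called and call counts of other gene lists include it.

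**Figure D2:**
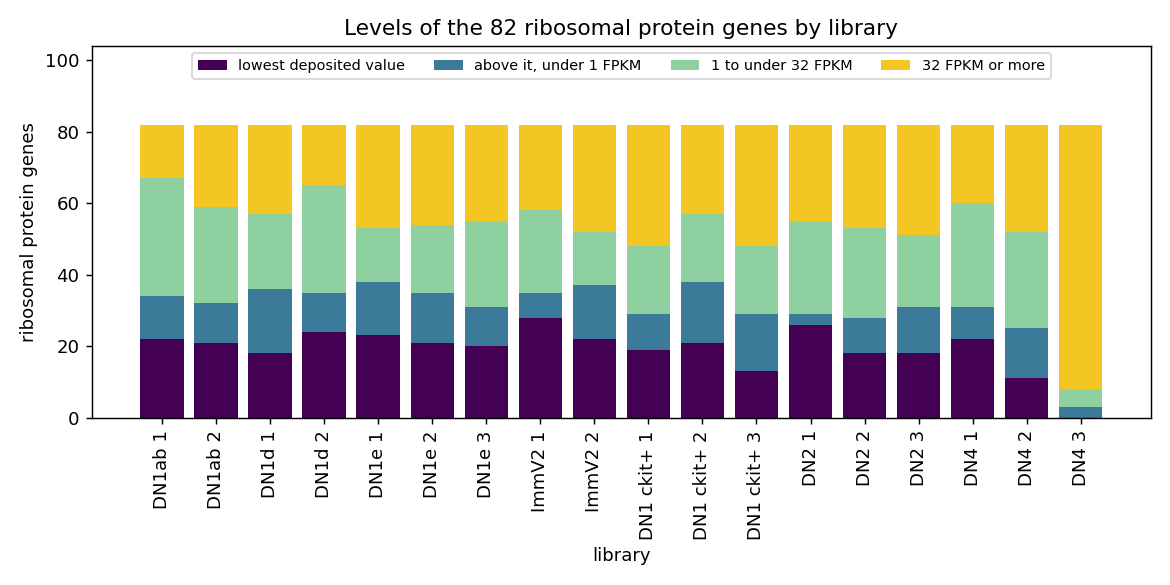
Number of the 82 ribosomal protein genes (vertical axis) in each of 4 level bands for every library (horizontal axis). The DN4 3 bar is almost wholly in the top band, with 74 genes, while the other bars have 15 to 34 genes there and 25 to 38 genes under 1 FPKM.

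**Figure D3:**
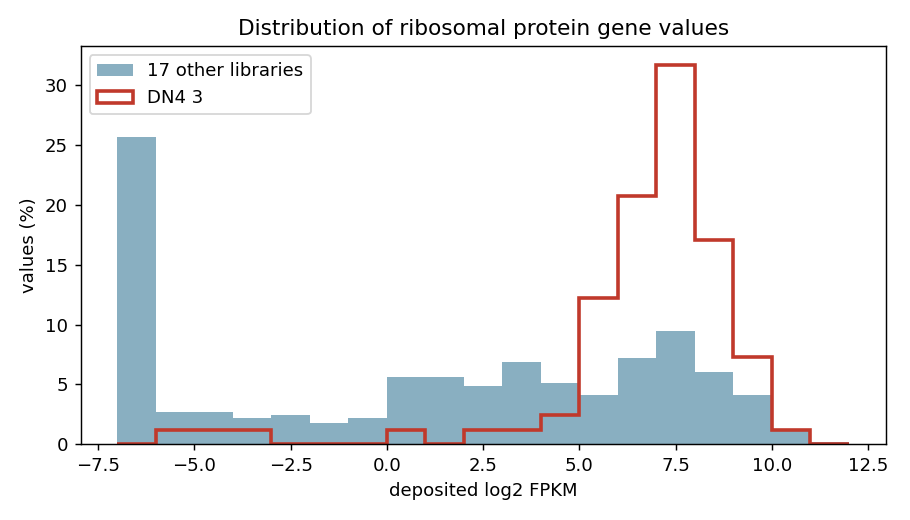
Share of values (%) by deposited log2 FPKM in bins of 1, for DN4 3 (line) and for the other 17 libraries (filled). The filled distribution has a peak at the lowest value (24.9% of values) and a broad peak at high values; DN4 3 has a peak at high values and 3 genes under 1 FPKM.

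Other genes of protein synthesis were as complete in DN4 3. Of 76 mitochondrial ribosomal protein genes, 0 were at the lowest value there and 7 to 20 elsewhere, although only 7 of them exceeded 32 FPKM, a number that other libraries matched (1 to 10). Of 31 translation factor genes, 0 were at the lowest value in DN4 3 and 0 to 11 elsewhere. Of 39 ribosome biogenesis genes, 0 were at the lowest value there and 4 to 16 elsewhere. Pseudogene rows of ribosomal proteins were at the lowest value in 10 of 164 rows in DN4 3 and in 36 to 63 elsewhere.

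Of the members, 5 were at least 32 FPKM in DN4 3 and in no other library; 3 of them are described here, partly named after their values were seen. Rpl10a, which forms the mobile L1 stalk of the large subunit, was 108.1 FPKM in DN4 3 and at most 10.58 FPKM elsewhere. Rpl28 was 93.57 FPKM and at most 7.359 FPKM elsewhere, and Rpl12, at the base of the acidic stalk that Rplp1 and Rplp2 form, was 84.25 FPKM and at most 12.32 FPKM elsewhere. In 15 members DN4 3 was at least 32 FPKM while DN4 1 and DN4 2 were under 1 FPKM.

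Replicates of the other populations also disagreed on many members. A member was at least 32 FPKM in 1 library and under 1 FPKM in another of the same population for 10 members in DN1ab, 16 in DN1d, 20 in DN1e, 19 in ImmV2, 26 in DN1 ckit+, 20 in DN2 and 35 in DN4. Between DN4 1 and DN4 2 alone this held for 12 members. Populations of 3 libraries have more pairs that can split than those of 2, and no count over all rows is given. The Spearman correlation of libraries over the 82 members had a median of 0.365 for 15 pairs of the same population. For 138 pairs of different populations it was 0.269. Over all rows these medians were 0.421 and 0.35. The 3 pairs of DN1e had a median of 0.481, and DN4 3 had a median of 0.215 with the others (17 pairs). Over all rows the medians were 0.34 for the DN1e pairs and 0.389 for DN4 3 with the others. The members are not independent points in these correlations, and libraries share the scale of the table.

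Few members were steadily high. Rps23, which lies at the decoding centre, was the only one at 32 FPKM or above in all 18 libraries. It was 51.6 and 66.08 FPKM in DN1ab, 386.1 and 275.6 in DN1d, 139.1, 174.7 and 225.1 in DN1e, and 142.2 and 302.9 in ImmV2. It was 311.5, 298.6 and 402.1 FPKM in DN1 ckit+, 170.3 to 222.5 in DN2, and 85.99, 155.4 and 159.6 in DN4. The DN1ab libraries were lower than all the others. Rps27, a small subunit protein with the highest median of the family (860.6 FPKM), was 656.9 to 2139 FPKM in 15 libraries, and 14.74 and 17.04 FPKM in DN1ab and 6.814 FPKM in DN1d 1. Its other DN1d library was at 1004 FPKM, so the replicates of DN1d fell on either side. DN1ab against ImmV2 gave a log2 difference of -5.68 ± 1.71 for Rps27 (SE, limma adjusted p = 0.259), which did not pass. Of 18 fits that each left out a library, 2 passed, without DN1d 1 (adjusted p 0.0347) and without DN1d 2 (0.0364), and 16 did not (0.245 to 0.424).

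The other high members by median were Rpl4 (324.5 FPKM), Rpl32 (308.1), Rpl23 (282.3), Rpl41 (248.6), Rplp1 (192.5) and Rps26 (182.5). All of these but Rpl41 were at the lowest value in at least 1 library. Rpl41, the smallest protein of the ribosome, was 0.2121 FPKM in DN1ab 2 and 935.6 FPKM in DN1ab 1. At the other end, Rpl10l, a testis paralog of Rpl10, was under 1 FPKM in all 18 libraries, and Rps4y2 was under 1 FPKM in 15. The Rps4y2 row matched a RefSeq gene annotated as a transcribed pseudogene.

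The populations were compared with limma on log2(FPKM + 1), a scale that understates changes of low genes, over the 24525 genes that reached 1 FPKM in 2 or more libraries; 80 of the 82 members passed this filter. A call required an adjusted p (Benjamini-Hochberg, all tested genes) under 0.05 and, between populations, a log2 difference of at least 1. The F test over all 7 populations called 2 of 80 members, Rpl4 and Rpl34, where it called 1.4% of all tested genes. At an unadjusted p under 0.05 there were 18 members (22.5%) and 11.3% of all genes. Without DN4 3 the test again called 2 members, but they were Rps3 (adjusted p 0.00158) and Rpl5 (0.0221). The share of all tested genes called in that fit is not given.

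Rpl4, a large subunit protein with a long extension into the exit tunnel, was high in DN1 ckit+, DN2 and DN4. It was 843.2, 54.07 and 983.6 FPKM in DN1 ckit+, 582.4, 774.9 and 707.9 in DN2, and 815.3, 843.2 and 829.7 in DN4. It was 14.16 and 459.6 FPKM in DN1ab, 0.01 and 4.387 in DN1d, 9.133, 35.0 and 189.4 in DN1e, and 6.709 and 0.945 in ImmV2. All libraries of DN2 and DN4 were above those of the other populations except 2 of DN1 ckit+, and DN1d and ImmV2 were the lowest. The F test gave an adjusted p of 0.0295 in limma. The call ended with an adjusted p of 0.0507 to 0.0698 when any of 8 libraries was left out: DN1d 1, ImmV2 2, DN1 ckit+ 1, DN2 2, DN2 3 or any DN4 library.

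Rpl34, of the large subunit, had a like pattern. It was 188.8, 5.976 and 183.3 FPKM in DN1 ckit+, 190.2, 110.1 and 190.7 in DN2, and 10.48, 110.8 and 130.9 in DN4. It was 23.57 and 10.89 FPKM in DN1ab, 8.108, 2.174 and 24.97 in DN1e, and 0.03367 and 0.01 in DN1d, and ImmV2 had the lowest value in each library. In each of DN1 ckit+ and DN4, 1 library fell among the DN1ab and DN1e values. The adjusted p of limma's F test was 0.0428. It rose to 0.0522 to 0.0908 when any of 13 libraries was left out, DN4 3 among them (0.0656); the others were DN1ab 1, DN1d 1, DN1d 2, DN1e 1, ImmV2 1, ImmV2 2, DN1 ckit+ 1, DN1 ckit+ 3, DN2 1, DN2 2, DN2 3 and DN4 2.

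The next members in the F test did not pass in limma. Rpl30, whose yeast counterpart binds and limits splicing of its own transcript, had an adjusted p of 0.0624. It was 284.8, 11.54 and 368.7 FPKM in DN1 ckit+, 205.8, 148.1 and 139.5 in DN2, and 0.05121, 173.2 and 187.0 in DN4, while it was at most 2.979 FPKM in all 9 libraries of DN1ab, DN1d, DN1e and ImmV2. Its DN4 1 library fell among the low ones. Without it the F test passed for Rpl30 with an adjusted p of 0.00563. Rpl27 (adjusted p 0.0833) was 1.491 and 0.01 FPKM in DN1d and 5.101 in DN1ab 1, and 85.71 to 314.8 FPKM in the other 15 libraries. Rps26, at the exit channel of messenger RNA (0.135), was 0.01 to 2.943 FPKM in DN1ab and DN1d and 0.01 in DN4 1, with 8.62 FPKM in ImmV2 1 and at least 136.9 FPKM elsewhere. Rpl31, at the rim of the exit tunnel (0.139), was at most 0.01878 FPKM in DN2 and 23.13, 36.31 and 42.8 FPKM in DN4.

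**Figure D4:**
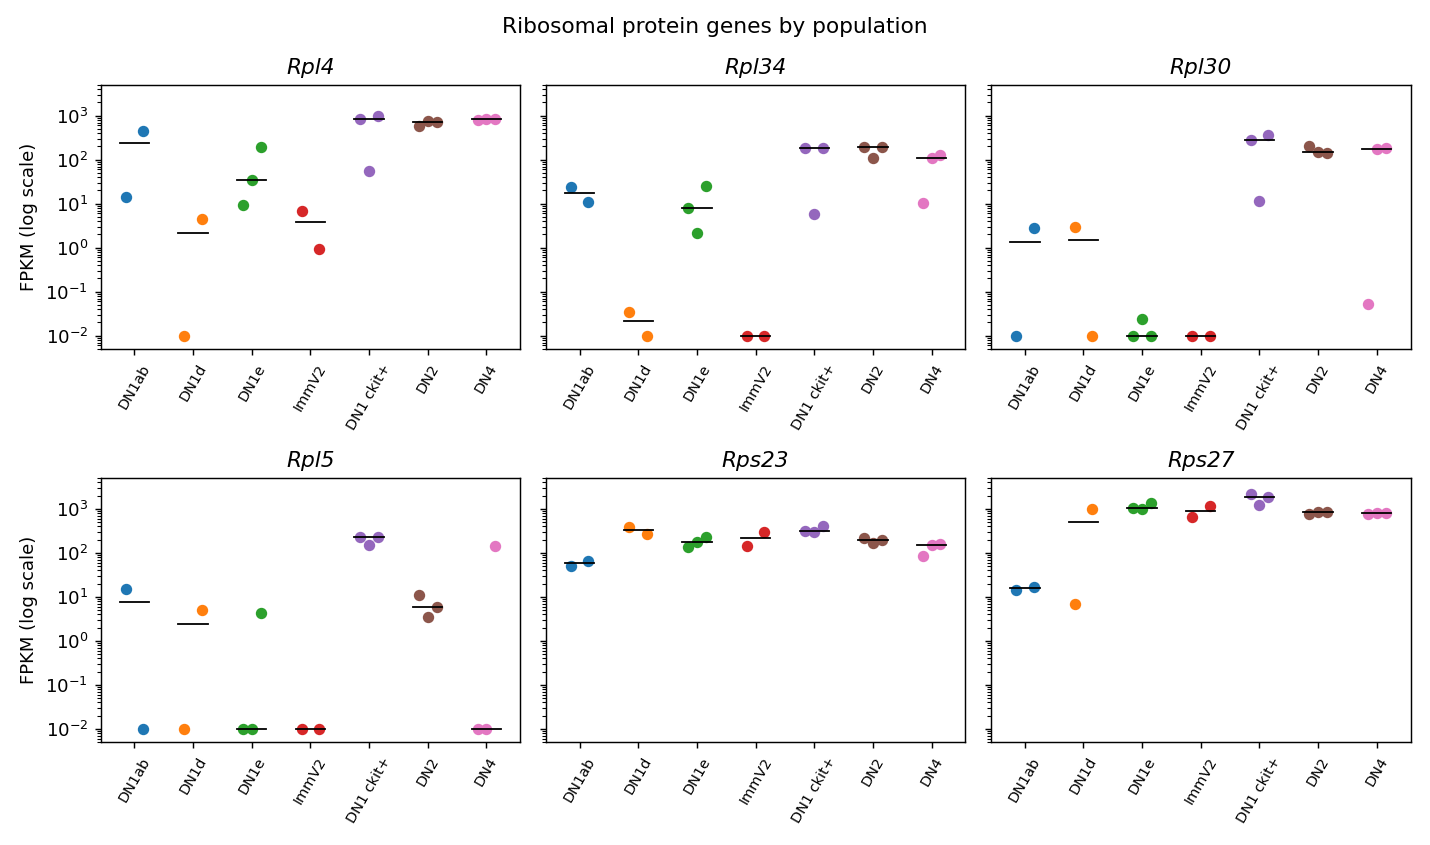
FPKM (log axis) of 6 ribosomal protein genes in each library (points), by population, with the median of each population as a line. Rpl4, Rpl34 and Rpl30 are mostly high in DN1 ckit+, DN2 and DN4, Rpl5 is high in DN1 ckit+ and in DN4 3, and Rps23 and Rps27 are high in most libraries.

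Against ImmV2, 0 of 80 members were called by limma in DN1ab, DN1d, DN1e, DN1 ckit+, DN2 or DN4. These 6 comparisons share the 2 ImmV2 libraries. The shares of all tested genes called were 0.396% for DN1ab, 0.277% for DN1d, 0.591% for DN1e, 0.33% for DN1 ckit+, 0.188% for DN2 and 0.249% for DN4. At an unadjusted p under 0.05 there were 13 members in DN1ab (16.2%, against 7.74% of all genes), 6 in DN1d (7.5% and 6.9%), 10 in DN1e (12.5% and 10.2%), 8 in DN1 ckit+ (10% and 7.23%), 10 in DN2 (12.5% and 6.92%) and 9 in DN4 (11.2% and 7.03%).

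The members named here had the largest differences without overlap of libraries in their comparison. In DN1ab, Rpl23 was 0.01 and 0.1074 FPKM against 259.8 and 512.7 in ImmV2, a log2 difference of -8.44 ± 2.83 (SE, limma adjusted p = 0.371). Rplp1, of the stalk that recruits elongation factors, was 0.901 and 0.1716 FPKM in DN1ab and 375.4 and 498.5 in ImmV2 (limma adjusted p = 0.525). Rpl11 was 37.9 and 792.3 FPKM in DN1ab and 0.01 and 0.04508 in ImmV2 (limma adjusted p = 0.589). The libraries of DN1ab and ImmV2 did not overlap for these 3 genes, but none passed the test.

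In DN1d, Rpl27 was lower than in ImmV2 (86.38 and 214.0 FPKM) by a log2 difference of -6.43 ± 1.49 (SE), with a limma adjusted p of 0.103, which became 0.0226 or 0.0208 without DN1ab 1 or DN1ab 2. Rps3, a small subunit protein at the entry of messenger RNA, was 111.8 and 85.57 FPKM in DN1d and 0.1413 and 0.2844 in ImmV2, a log2 difference of 6.35 ± 1.68 (SE, limma adjusted p = 0.192). Outside DN1d, Rps3 was above 1 FPKM only in DN4 3 (157.0 FPKM). Without DN4 3 its adjusted p was 0.00131, which passed. In DN1e, Rpl7 was 398.7, 380.6 and 272.1 FPKM against 0.01 and 5.512 in ImmV2 (limma adjusted p = 0.340).

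Rpl5 and Rpl11 bind 5S rRNA together, and outside the ribosome this particle inhibits Mdm2. Rpl5 was 230.8, 154.8 and 228.5 FPKM in DN1 ckit+ and 0.01 FPKM in each ImmV2 library (limma adjusted p = 0.107). It was 11.14, 3.537 and 5.99 FPKM in DN2 and 0.01, 0.01 and 147.3 in DN4. The DN1 ckit+ values were higher than those of all other libraries. Without DN4 3 the comparison of DN1 ckit+ with ImmV2 had an adjusted p of 0.0200. Rpl11 did not follow Rpl5: it was 0.01, 534.6 and 0.02046 FPKM in DN1 ckit+.

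In DN2, Rpl4 differed from ImmV2 by 7.47 ± 1.68 on the log2 scale (SE, limma adjusted p = 0.116), and Rpl34 and Rpl30 had adjusted p-values of 0.0659 and 0.184; no difference is given for these, since ImmV2 was at the lowest value. The adjusted p of Rpl34 was 0.0235 without DN1 ckit+ 2 and 0.0496 without DN4 1, and that of Rpl30 was 0.0392 without DN4 1. In DN4, Rpl4 differed from ImmV2 by 7.74 ± 1.68 (SE, limma adjusted p = 0.0820), and the adjusted p was 0.0462 or 0.0428 without DN1ab 1 or DN1ab 2. Without DN4 3 it was 0.165, with the difference at 7.74. Rps25, of the small subunit, was 0.05374, 1294 and 375.4 FPKM in DN4 and 0.01 and 0.01781 in ImmV2 (limma adjusted p = 0.429), with DN4 1 far below its replicates. Without DN4 1 its adjusted p was 0.00581, and without DN4 3 it was 0.737.

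Between stages of the double-negative series, 0 of 80 members were called by limma. Without DN4 3, Rpl5 was called as lower in DN4 than in DN1 ckit+ (log2 difference -7.65 ± 1.28 SE, limma adjusted p = 0.0168); with it the difference was -5.25 (adjusted p 0.329). The shares of all tested genes called were 0.0612% for DN2 against DN1 ckit+, 0.0815% for DN4 against DN2 and 0.208% for DN4 against DN1 ckit+. At an unadjusted p under 0.05 there were 4 members (5%, against 5.94% of all genes), 7 (8.75% and 5.44%) and 7 (8.75% and 7.1%). Rps7, a small subunit protein, was 68.4, 62.22 and 57.76 FPKM in DN2 and 0.02672, 0.01 and 1.005 in DN1 ckit+, a log2 difference of 5.64 ± 1.52 (SE, limma adjusted p = 0.327). Rpl5 was lower in DN2 than in DN1 ckit+ by a log2 difference of -4.80 ± 1.62 (SE, limma adjusted p = 0.527). Rpl31, with the values above, differed by 5.07 between DN4 and DN2 on the log2 scale (limma adjusted p = 0.498), and by 4.89 without DN4 3 (0.739). Rpl21 was 14.83, 29.55 and 34.48 FPKM in DN4 and at most 0.03832 in DN2 (limma adjusted p = 0.725); in ImmV2 it was 1972 FPKM in 1 library and 0.03133 in the other. Without ImmV2 1 the adjusted p of Rpl21 for DN4 against DN2 was 0.0353, and without DN4 3 it was 0.950.

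Taken over the members, the median log2 difference was close to 0 in the comparisons without DN4, from -0.068 for DN2 against DN1 ckit+ to 0.197 for DN1 ckit+ against ImmV2. In DN1d the median (0.0064) and the mean (-0.197) differed in sign. With DN4 the median was 1.51 against ImmV2 (0.0082 over all genes), 1.01 against DN2 (0 over all genes) and 1.15 against DN1 ckit+ (0 over all genes). Members were above 0 in 55, 53 and 53 of 80. Without DN4 3 these medians were 0.0095, 0 and -0.0015, with 41, 39 and 38 of 79 members above 0.

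**Figure D5:**
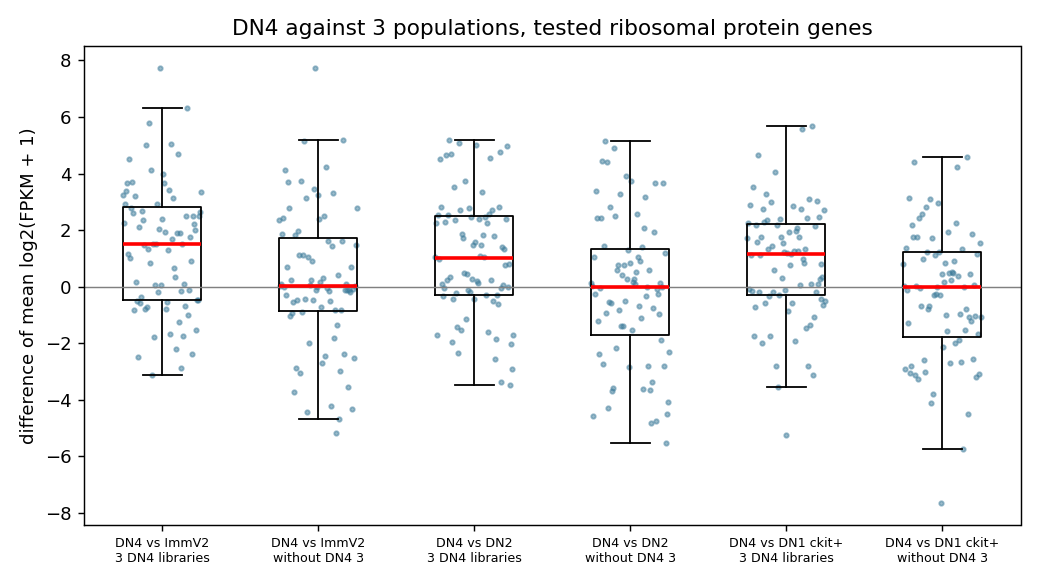
Difference of mean log2(FPKM + 1) between DN4 and ImmV2, DN2 or DN1 ckit+ for each tested ribosomal protein gene (points), with boxes for the quartiles, whiskers to the last point within 1.5 box lengths and a red line at the median. The median is 1.51, 1.01 and 1.15 with 3 DN4 libraries and 0.0095, 0 and -0.0015 without DN4 3.

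Paralog pairs did not divide by population in the same way. Rpl22, required by alpha beta T cells, was 1141 FPKM in DN1 ckit+ 2, 485.6 in DN2 2 and 554.3 in DN4 3, and under 1 FPKM in the other 15 libraries. Rpl22l1 was 34.18 to 146.7 FPKM in 5 libraries (DN1ab 2, DN1e 3, ImmV2 2, DN1 ckit+ 2 and DN4 3), and under 1 FPKM in 11. Both were high in DN1 ckit+ 2 and DN4 3. Rpl3, near the peptidyl transferase centre, was at least 32 FPKM in 5 libraries, and so was Rpl3l, a paralog known from striated muscle; DN1ab 2 was the only library with both. Rpl39l and Rpl7l1 never reached 32 FPKM, whereas Rpl39 and Rpl7 did in 4 and 8 libraries. Rps27l, induced by p53 in other cells, was at least 32 FPKM in 11 libraries.

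Of the stalk proteins, Rplp0, which anchors the stalk, was 238.6 and 247.0 FPKM in DN1ab, 239.9 and 3.713 in DN1d and 1.525 to 148.7 FPKM in the others, and was above 1 FPKM everywhere. Rplp1 and Rplp2, the acidic proteins that dimerise on it, were at least 32 FPKM in 9 and 10 libraries, 6 of them the same, and in 3 of these Rplp0 was too. Rps19, tied to inherited anaemia in humans, was 0.01 to 472.8 FPKM with a median of 8.824. Rps14, deleted in a human marrow syndrome, was 0.01493 to 900.8 FPKM with a median of 10.02. Rpl38, which in mouse embryos affects translation of Hox messages, was at least 32 FPKM in 8 libraries and under 1 FPKM in 8.

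Of the genes outside the symbol pattern, Fau, whose product is cleaved to a small subunit protein, was above 1 FPKM in all libraries (1.141 to 166.3 FPKM), and Rpsa was under 1 FPKM in 3 and at most 115.2 FPKM. Of 31 translation factor genes, 1 was called in a comparison: Eef2, the factor that moves the ribosome along messenger RNA, was 639.9, 386.1 and 357.9 FPKM in DN4 and at most 8.688 FPKM in the other 15 libraries. It rose against DN2 by 8.14 ± 0.98 on the log2 scale (SE, limma adjusted p = 0.00117), and by 8.30 ± 1.12 without DN4 3 (SE, adjusted p 0.00265). All 3 DN4 libraries were high. Eef1a1, which delivers aminoacyl-tRNA, was 0.09242, 182.6 and 1174 FPKM in DN4. Actb was under 1 FPKM in 11 libraries. No gene of the mitochondrial ribosome (74 tested) or of ribosome biogenesis (37 tested) was called by limma in the 3 DN4 comparisons. At an unadjusted limma p under 0.05, 4, 2 and 2 of the 74 were found in DN4 against ImmV2, DN2 and DN1 ckit+. In the same order there were 4, 5 and 5 of the 37, and 5, 4 and 7 of the 31 translation factor genes. The shares of all tested genes were 7.03%, 5.44% and 7.1%.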

How the data were processed

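RNA of 18 libraries from sorted mouse thymocytes was amplified with NuGEN kits and sequenced on Illumina HiSeq, per the labels' protocols. The authors deposited log2 FPKM for 34082 gene rows; the submitters' processing notes name Bowtie and mm8, and the sources used here give no quantifier, annotation or normalization. Counts were not used here, so depth and counting error are unknown. Ribosomal protein genes have many processed pseudogenes and close paralogs, among which reads could be divided or lost by a rule not given, which with the unknown scaling and reduction to 1 row per symbol leaves levels of single members uncertain. Values were turned into FPKM, 1 was added and log2 taken, and limma 3.58.1 in R 4.3.3 (moderated tests with a trend) fitted the 7 population means to the 24525 genes that reached 1 FPKM in 2 or more libraries. The 9 comparisons and an F test used two-sided tests, adjusted over all tested genes by Benjamini-Hochberg. The procedure was run on simulated data drawn from a normal distribution around each gene's mean. Such data differ from the mix of lowest and high values seen here, so they do not show how the tests behave on it. Named genes are those called, the 8 highest and lowest by median, the 6 with the smallest F test p, the 3 largest differences without overlap per comparison, paralog pairs, stalk proteins and a few known members. Some genes that this rule names are not reported here, though counts over the members include them. The members, lists and level bands were chosen with earlier results of these data known. Promoter windows came from RefSeq (GRCm38.p6), which held 73 windows for 61 members; small nucleolar RNAs were placed by GENCODE M21. Alternatives were pseudocounts of 0.1 and 5 FPKM, values as deposited, no filter or 6 libraries, quantile normalization, median centring, the replicate number as a block, only the libraries of a comparison, and each library left out.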

Additional observations from a re-analysis of the deposited data

How the results depend on the processing

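The 27 named differences were chosen for libraries that did not overlap. Leaving out a library or changing the pseudocount or filter could therefore not reverse them, and none reversed. The member median of DN4 against DN1 ckit+ went from 1.15 to -0.0015 without DN4 3. The F test called 3 members (Rpl4, Rpl34 and Rpl27) with a pseudocount of 0.1 FPKM and with values as deposited, 0 members with a pseudocount of 5 FPKM, 0 without a filter, 1 when genes had to reach 1 FPKM in 6 libraries and 0 with the replicate number as a block; leaving out a library gave 0 to 4. With the block, adjusted p-values were 0.0984 for Rpl4 and 0.105 for Rpl34. The share of all tested genes called by the F test is given for the main fit only (1.4%). Changes in the member counts therefore have no background to be set against. Same-numbered libraries did not visibly deviate together (correlations -0.0164 to 0.0174 over 48 pairs, against -0.0224 to 0.0224 over 90 other pairs). The check cannot exclude pairing, since deviations in populations of 2 libraries mirror each other and replicates differed widely. Over 26 settings the adjusted p ranged from 0.0131 to 0.0984 for Rpl4 and from 0.00352 to 0.139 for Rpl34.

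Against ImmV2, a pseudocount of 0.1 FPKM called 1 member in each of DN1 ckit+, DN2 and DN4. Of all 24525 tested genes it called 38, 21 and 30. The values as deposited called 1 member in each of DN1ab, DN1e, DN1 ckit+, DN2 and DN4. Of all tested genes they called 29, 46, 12, 9 and 15. The member was Rpl34 each time. Leaving out a library gave 0 to 1 calls in DN1ab, DN1d, DN1e and DN1 ckit+, 0 to 2 in DN2 and DN4, and 0 to 1 in DN4 against DN2 and against DN1 ckit+. Without ImmV2 2, Rpl21 was called in all 6 comparisons with ImmV2, with adjusted p-values from 0.000292 to 0.0184, ImmV2 1, the high library, then standing alone for ImmV2. The median difference of DN4 against ImmV2 was 0.0095 to 2.40 when a library was left out. Calls over all tested genes also moved, in DN4 against DN2 from 20 in the main fit to 56 without DN4 1. Of 725 values of the 27 named differences, 706 kept their direction and side and 19 passed, and the cause was not tested. Their direction was largely fixed by the choice of differences without overlap. Counting members under 1 FPKM in place of the lowest value gave 3 in DN4 3 and a median of 32 elsewhere. Without the 10 highest rows the members held 5.13% of summed FPKM in DN4 3 and 1.42% to 5.03% elsewhere (median 2.43%), with DN1 ckit+ 3 the highest of these. Fitting only the libraries compared called 0 members in each comparison; calls over all genes then numbered 0 in DN1ab, DN1d, DN1e, DN1 ckit+ and DN2 against ImmV2 (main 97, 68, 145, 81 and 46), 3 in DN4 against ImmV2 (61), 20 in DN2 against DN1 ckit+ (15), 2 in DN4 against DN2 (20) and 105 in DN4 against DN1 ckit+ (51). Unknown depth and 2 or 3 libraries per population limit all comparisons.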

Other observations

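Pseudogene rows of the members did not follow them. The table has 160 such rows for 51 members, and the Spearman correlation over 18 libraries between a member and the sum of its pseudogene rows had a median of 0.038 (-0.423 to 0.572), above 0 for 28 members. For Rpl10a the sum of 2 pseudogene rows was above the gene itself in 17 libraries, and it was 168.3 FPKM in DN4 3. The 17 include DN1d 1 and DN1e 2, where the gene and both pseudogene rows were at the lowest value. There the sum was higher only because 2 lowest values were added. These are descriptions over libraries that share the table's scale, and how reads were divided between gene and pseudogene was not tested.

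Small nucleolar RNAs, which guide modification of ribosomal RNA, lie in introns of many ribosomal protein genes, and 29 rows in 21 host genes were found. In 12 of them the median was above that of the host. The Spearman correlation with the host over 18 libraries had a median of 0.049 over the 29 rows, above 0 in 15 and below 0 in 14. It was over 0.5 in 5 rows, the highest being Snora52 with Rplp2 (0.818), Snora33 with Rps12 (0.71) and Snord16a with Rpl4 (0.708). It was under -0.5 in 3 rows, Snord42a (-0.888) and Snord42b (-0.76) with Rpl23a and Snord15a with Rps3 (-0.571). Snord42a was under 1 FPKM in 14 libraries, and Snord42b and Rps3 were in 15 each. In these 3 pairs at least 1 of the 2 genes therefore had mostly low values, many of them tied at the lowest value. Rpl23a itself was 2.922 to 181.2 FPKM. In the positive pair of Snora33 and Rps12, each was under 1 FPKM in 9 libraries. These genes were named after their values were seen. The number of annotated transcripts per gene had a correlation of 0.0449 with the number of libraries under 1 FPKM (80 members).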
